A study of Homo sapiens with 32 samples.

Results

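HEK293 cells, an established line from human embryonic kidney, were transiently transfected with the angiotensin II receptor AT1R, changed to serum-free medium and exposed to EGF (10 µg/l) or left without stimulus (control) for 24 h. The comparison of these 2 conditions rests on 8 of the 32 samples named in the series, 4 control and 4 EGF libraries, and on the 20327 protein-coding genes among the 57773 annotated genes. Its members were chosen by the condition and time in the sample labels, not by expression. Controls carried the AT1R plasmid too, and the 4 conditions after 24 h (control, EGF, angiotensin II (AII, 1 nmol/l) and AII+EGF) differ in the labels only by the stimuli. HEK293 is a single line that had its own EGF receptor, the transfection was transient, and the labels do not say whether the libraries came from separate cultures. The p-values below therefore measure the spread between libraries, which may be partly technical. The library numbers in the sample descriptions form 2 separate stretches after 24 h (library series 1 and 2), each with 2 control and 2 EGF libraries. What sets the 2 series apart is not stated in the labels. Control 1 and 2 and EGF 1 and 2 belong to series 1, control 3 and 4 and EGF 3 and 4 to series 2, and the numbers only name the libraries.

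EGF binds the receptor tyrosine kinase EGFR, which signals through RAS, RAF and MEK to the kinases ERK1/2 and through PI3-kinase to AKT and mTOR. ERK phosphorylates ternary complex factors that act with SRF at CArG boxes, and within minutes to hours this induces immediate early genes such as the transcription factors FOS and EGR1. ERK also induces the ETS factors of the PEA3 family and its own inhibitors, the SPRY and SPRED proteins and the dual-specificity phosphatases. The comparison asks which transcripts differed from control a day after EGF was added, long after the immediate early phase.

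The total count was 10127528 to 20773469 in control and 9864782 to 20229074 with EGF, of which protein-coding genes held 35.6% to 63.4% and 36.0% to 57.1%. Genes of U1 small nuclear RNA took 8.90% to 22.9% of control and 12.2% to 33.5% of EGF libraries, so the groups overlapped in both shares. Levels are given as FPM, fragments in 1000000 protein-coding fragments after TMM scaling, without correction for gene length, so levels are compared between libraries and not between genes. The transfected receptor gene AGTR1 had 862 to 1524 FPM in control and 871 to 1615 FPM with EGF, and its log2 fold change was 0.07 ± 0.11 (SE). Of 6 HEK293 markers, 5 (VIM, KRT8, KRT18, CDH2 and NEFM) exceeded 5 FPM in all 8 libraries. The other, PAX2, had a mean of 0.804 FPM in control and 0.730 FPM with EGF and was below the filter on low counts. Of 11 markers of other cell types 7 were under 1 FPM in all 8 libraries, UMOD (mature nephron) was at 0 in each and only COL1A1 (fibroblasts) exceeded 5 FPM throughout. The summed level of these 11 markers was 25.6 to 48.5 FPM in control and 23.9 to 29.5 FPM with EGF. As in any bulk sample, fewer cells with a transcript and less of it per cell cannot be told apart.

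After 24 h, EGF libraries held more of the ETS factors ETV5 and ETV1, of EGR1 and EGR3, of the neurofilament gene NEFM and of amino acid genes such as ASNS and SLC7A11, and less of 13 transcripts of mixed function. Of 14294 protein-coding genes that passed the filter on low counts, 62 (0.434%) passed the 3 criteria, which were an adjusted p under 0.05 in edgeR's quasi-likelihood test, a fold change above 1.5 and a mean above 5 FPM in the higher group. Of these, 49 (0.343%) rose and 13 (0.0909%) fell. With only the 8 control and EGF libraries in the fit 22 rose and 2 fell, without the library series block 18 and 2, and with DESeq2 71 and 47. By the adjusted p alone, 86 genes (0.602%) were higher and 33 (0.231%) lower, and 13.1% of all genes had an unadjusted p under 0.05. Most changes were small. Of the 49 rises 16 exceeded 2-fold, and of the 13 falls 8 did, while the median log2 fold change of all 14294 genes was 0.00086. In 51 of the 62 genes the 4 EGF and the 4 control libraries did not overlap (40 higher and 11 lower, where 2.74% and 2.33% of all tested genes were separated in this way). All 62 genes had the same sign in both library series. They were called on these same libraries with the series as a block, so neither the separation of the groups nor the shared sign is independent support. In series 1 alone 4 of the 62 passed, and in series 2 alone 16.

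How many genes passed depended on single libraries. The number was 37 without control 1, 41 without EGF 2, 29 without control 3, 34 without control 4, 37 without EGF 4 and 115 without EGF 3. With every library left out in turn, 17 of the 62 genes passed each time. These were EGR1, EGR3, NEFM, C11orf96, RGS16, SEC24D, HERPUD1, ASNS, EEF1A2, CLU, ARRDC4, STC2, ATF3, NDRG1 and SCARA5 among the 15 that rose, and WDR52 and MUC19 among the falls. The other 45 genes lost the adjusted p or the 1.5-fold limit at least once, and none changed sign. The calls lost were 31 without control 1, 18 without control 2, 36 without control 3, 32 without control 4, 17 without EGF 1, 28 without EGF 2, 6 without EGF 3 and 31 without EGF 4.

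**Figure D1:**
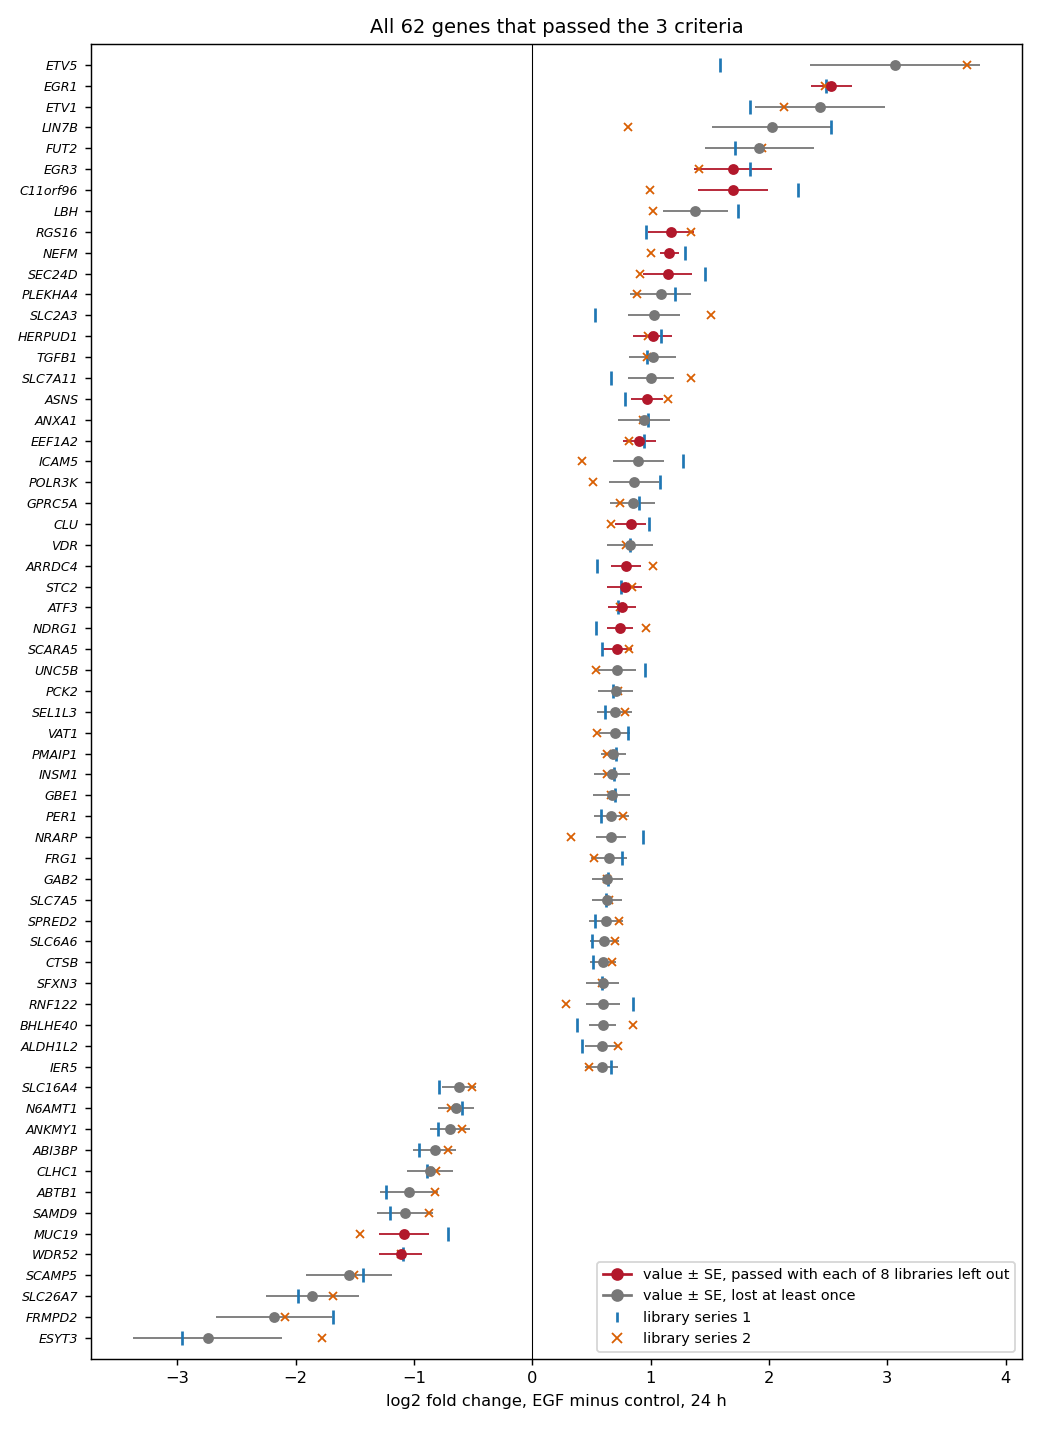
Log2 fold change (x axis) of each of the 62 genes that passed the 3 criteria, sorted by size, with its SE. Red points mark the 17 genes that passed with each of the 8 libraries left out, grey points the other 45, and the bars and crosses give the mean difference within library series 1 and 2, which lie on the same side of 0 for every gene.

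The largest rise was that of ETV5, an ETS factor of the PEA3 family (chr3:185764103-185828107 in GRCh37, minus strand). Control libraries held 0.202, 2.11, 0.246 and 0.134 FPM and EGF libraries 3.03, 4.2, 7.31 and 9.40 FPM. The groups did not overlap, although control 2 lay far above the other controls and the counts were small, 1 to 16 reads per control and 11 to 58 per EGF library. The log2 fold change was 3.07 ± 0.72 (SE, adjusted p = 0.0316), with 1.59 in series 1 and 3.68 in series 2. ETV1, of the same family (chr7:13930854-14031050, minus strand), had 1.42, 1.32, 0.614 and 0.805 FPM in control and 5.23, 7.30, 4.92 and 4.60 FPM with EGF, a log2 fold change of 2.43 ± 0.55 (adjusted p = 0.0265). Every EGF library exceeded every control library. The third member, ETV4, had 0.368 to 2.28 FPM in control and 0.550 to 4.38 FPM with EGF and did not pass (log2 fold change 1.20 ± 0.68, adjusted p = 0.473). ETV5 lost its call without control 1, EGF 2, control 3, control 4 or EGF 4 (log2 fold change 2.60 to 4.89, adjusted p up to 0.133) and ETV1 without any but EGF 1 and EGF 3 (2.30 to 2.53, adjusted p up to 0.0851).

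Among ERK's feedback inhibitors only SPRED2, which blocks RAF activation, passed. It rose from 40.0 ± 6.94 to 61.5 ± 3.57 FPM (mean ± SD, n = 4 each, log2 fold change 0.62 ± 0.15 (SE), adjusted p = 0.0315) with separated groups, and lost the call without control 1, EGF 2, control 3, EGF 3 or EGF 4 (adjusted p up to 0.140). SPRY2, an inhibitor of receptor tyrosine kinase signalling, had 6.47, 11.9, 11 and 10.9 FPM in control and 14.3, 13, 13.9 and 17.5 FPM with EGF. The groups were separated, but the gene did not pass (0.53 ± 0.25, adjusted p = 0.368). DUSP1, a nuclear MAP kinase phosphatase, had 13.8 to 21.5 FPM in control and 20.4 to 33.0 FPM with EGF (0.57 ± 0.23, adjusted p = 0.259). DUSP6, the cytoplasmic ERK phosphatase, was at most 2.83 FPM in control and 4.02 FPM with EGF, with 1 EGF library at 0 (adjusted p = 0.804). SPRY4 was below the filter on low counts, with 0.134 to 0.607 FPM in control and 0.913 to 1.93 FPM with EGF (exact two-sided permutation test, p = 0.0286, the smallest possible with 4 against 4 libraries, and 0.0556 within the library series). In all, 3 of the 20 tested ERK feedback and ETS genes passed, none in the lower direction, against 0.434% of all genes. Their median log2 fold change was 0.48, and 17 of the 20 values were above 0. This list, like the gene lists below, was chosen with earlier results of these data known and is no independent evidence.

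EGR1, a zinc finger factor and classical immediate early gene (chr5:137801168-137804992, plus strand), gave the clearest single rise. Control libraries held 12.5, 8.83, 13.8 and 9.79 FPM and EGF libraries 60.2, 62.1, 76.4 and 58.5 FPM. Each EGF library thus lay several-fold above each control, in both library series alike (log2 fold changes of 2.48 and 2.48). The fitted log2 fold change was 2.53 ± 0.17 (SE), or 5.76-fold, with an adjusted p of 4.93e-11. It was 2.43 to 2.62 with single libraries left out. EGR1 and NEFM were the 2 genes that passed under every alternative tried. EGR1 is a textbook target of SRF, and the 250 bases before its RefSeq start are shown because they hold 2 CArG boxes, the sites that SRF binds, 105 to 96 and 83 to 74 bases before the start (capitals; GRCh38.p14, chr5:138465229-138465478, plus strand, 5′ to 3′).
EGR1: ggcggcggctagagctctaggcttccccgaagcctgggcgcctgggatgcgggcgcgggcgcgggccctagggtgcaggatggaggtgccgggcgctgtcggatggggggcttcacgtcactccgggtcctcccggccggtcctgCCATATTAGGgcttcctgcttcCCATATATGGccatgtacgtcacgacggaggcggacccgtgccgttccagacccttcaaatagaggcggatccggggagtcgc
A CArG box on either strand is in 1.08% of the 11429 RefSeq promoters of tested genes. That share was counted over 300 bases, the 250 before and the 50 after the start. In the immediate early list SRF holds a CArG box too, and it did not pass (log2 fold change 0.20 ± 0.15). The match describes the letters and is not a measurement of binding.

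EGR3, a related zinc finger factor, rose from 2.23, 4.09, 3.56 and 5.23 FPM in control to 11.3, 13.1, 12 and 12.7 FPM with EGF. The groups were far apart, the EGF libraries lay close together, and the log2 fold change was 1.70 ± 0.33 (SE, adjusted p = 0.00665). The EGR3 log2 fold change did not pass with only the 8 libraries in the fit (1.69, adjusted p = 0.0588) or in either series alone (adjusted p = 0.329 and 0.193). EGR2 had 0.805 to 4.09 FPM in control and 2.01 to 4.41 FPM with EGF and did not pass (0.33 ± 0.66, adjusted p = 0.882). ATF3, a stress-induced bZIP factor, rose from 101 ± 18.3 to 170 ± 45.1 FPM (mean ± SD, n = 4 each, log2 fold change 0.76 ± 0.12 (SE), adjusted p = 0.00098) with separated groups. IER5, a further immediate early gene, rose by 0.59 ± 0.14 (adjusted p = 0.0316), close to the 1.5-fold limit, and lost the call in 6 of the 8 fits with a library left out, that is without any but EGF 2 and EGF 3 (adjusted p up to 0.129).

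MYC, JUN and FOS did not pass the 3 criteria. MYC had 776 to 827 FPM in control and 970 to 1270 FPM with EGF, so that the groups were separated, and its adjusted p was 0.00392 at a log2 fold change of 0.44 ± 0.08, below the 1.5-fold limit. JUN had 451 to 485 FPM in control and 489 to 730 FPM with EGF (0.40 ± 0.10, adjusted p = 0.0367), also below that limit. FOS had 2.68 to 9.10 FPM in control and 5.18 to 12.4 FPM with EGF, and the groups overlapped (0.67 ± 0.38, adjusted p = 0.469). ARC, an immediate early gene best known from neurons, had 0.00, 1.19, 4.91 and 0.268 FPM in control and 12.7, 6.75, 6.68 and 7.48 FPM with EGF. It was higher in every EGF library, yet its log2 fold change of 2.48 ± 0.64 had an adjusted p of 0.059. It passed with DESeq2 (2.58, adjusted p = 0.00493), without the filter on low counts (2.47, adjusted p = 0.000144), without control 3 (3.90, adjusted p = 0.00848) and without EGF 3 (2.76, adjusted p = 0.0327). In the fit without that filter the prior degrees of freedom were infinite, against 19.0 in the main fit. Every gene then took the common spread at its level, whatever its own libraries showed. Of the 28 tested immediate early genes 4 passed, all higher, against 0.434% of all genes. In this list 24 of 28 values were above 0 (7163 of all 14294 genes) and the median was 0.37. The list too was chosen with earlier results of these data known.

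The receptor and its ligands did not pass. EGFR had 63.7, 65.8, 57.3 and 68.0 FPM in control and 42.9, 59.3, 76.0 and 63.7 FPM with EGF, so the EGF libraries lay on both sides of the controls (log2 fold change −0.06 ± 0.15, adjusted p = 0.903). HBEGF, a membrane-bound EGFR ligand, was at most 1.58 FPM in control and 1.10 to 5.18 FPM with EGF (1.58 ± 0.78, adjusted p = 0.393). Of 15 receptor, ligand and sheddase genes 9 were tested, and 0 passed in edgeR's test or in DESeq2 (0 at an unadjusted p under 0.05), with a median of −0.06.

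**Figure D2:**
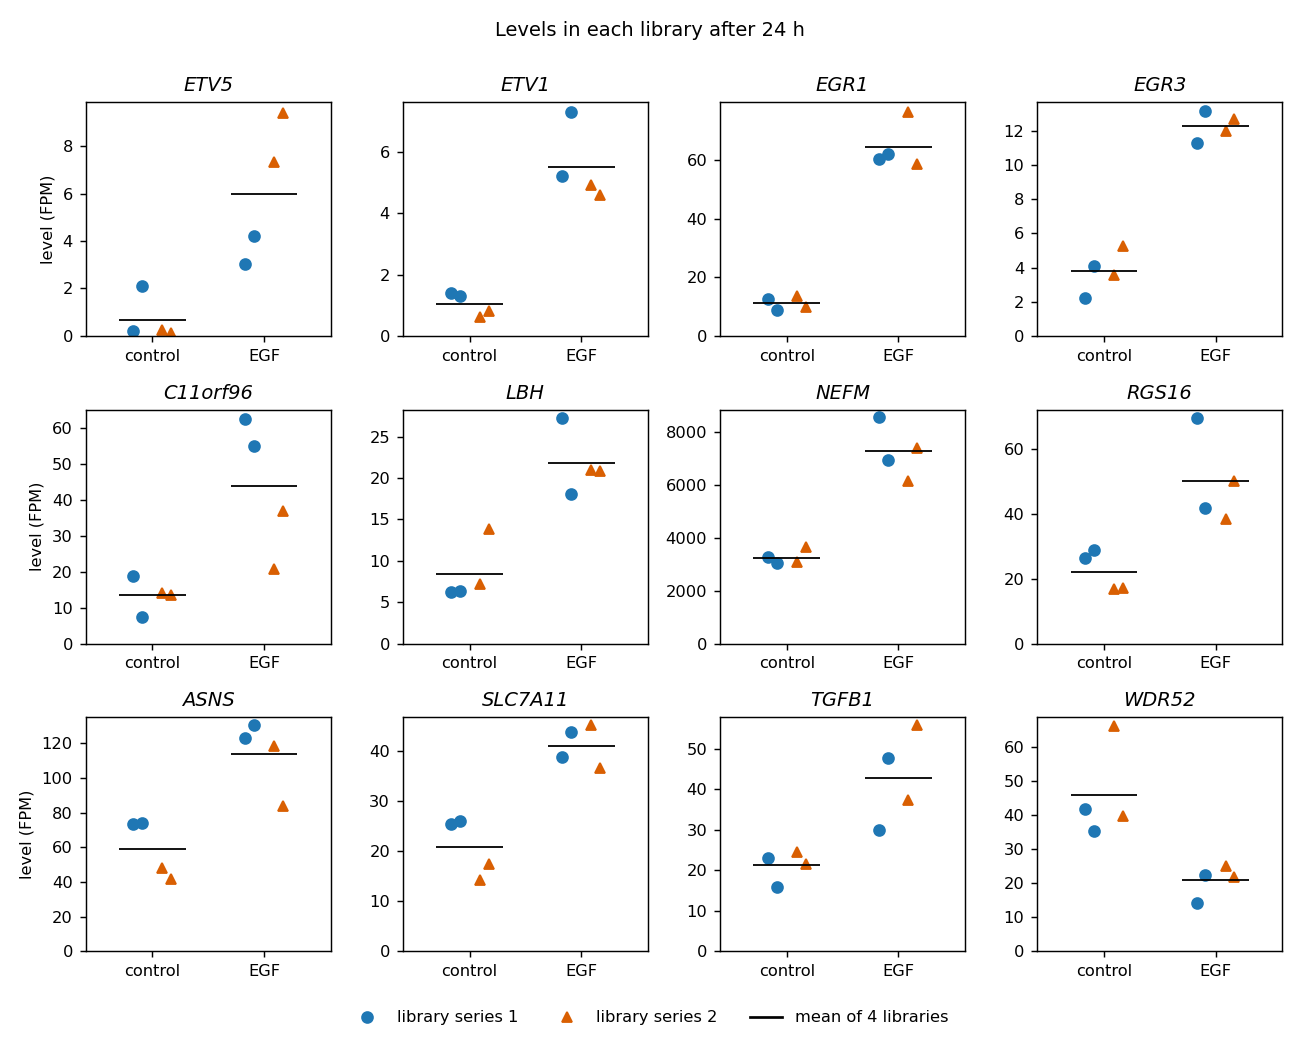
Level in FPM (y axes, linear from 0, scaled per gene) of 12 genes in each control and EGF library after 24 h. Circles are library series 1, triangles library series 2 and lines the mean of 4 libraries. EGR1 lies at 8.83 to 13.8 FPM in control and 58.5 to 76.4 FPM with EGF, and WDR52 is lower in all EGF libraries.

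A second group of rises concerned amino acid supply. ATF4 is a bZIP factor that is translated when amino acids are short or the endoplasmic reticulum is stressed, and also under mTOR, and it induces genes for amino acid uptake, amino acid synthesis and tRNA charging. ASNS, asparagine synthetase (chr7:97480989-97501854 in GRCh37, minus strand), had 73.2, 74.0, 47.9 and 41.7 FPM in control and 123, 131, 119 and 84.0 FPM with EGF. The groups were separated, and both were higher in series 1 than in series 2. The log2 fold change was 0.97 ± 0.13 (SE, adjusted p = 0.000313). SLC7A11, which imports cystine in exchange for glutamate, had 25.5, 26.0, 14.2 and 17.4 FPM in control and 38.8, 43.8, 45.2 and 36.6 FPM with EGF. It rose by 1.00 ± 0.19 on the log2 scale (adjusted p = 0.0062), with 0.67 in series 1 and 1.34 in series 2, and its adjusted p was 0.0522 without control 3.

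STC2, a secreted glycoprotein, rose from 67.5 ± 18.6 to 116 ± 25.8 FPM (mean ± SD, n = 4 each, log2 fold change 0.78 ± 0.15 (SE), adjusted p = 0.0062). SLC7A5, the LAT1 transporter of large neutral amino acids, rose from 49.9 ± 7.07 to 77.4 ± 2.38 FPM (0.63 ± 0.12, adjusted p = 0.00729) and lost the call only without control 4 (adjusted p = 0.0540). ALDH1L2, a mitochondrial enzyme of folate metabolism, rose by 0.59 ± 0.15 (adjusted p = 0.0459) and kept its call in 1 of 8 fits with a library left out, that without EGF 1. PCK2, the mitochondrial phosphoenolpyruvate carboxykinase, was not on the list but is amino acid responsive too. It rose from 34.0 ± 3.90 to 55.7 ± 7.0 FPM (0.71 ± 0.15, adjusted p = 0.0146), a call lost without control 1, control 3, control 4 or EGF 4 (adjusted p up to 0.0788).

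In total 5 of the 35 tested genes of ATF4 and its targets passed, 0 of them lower, against 0.434% of all genes. An adjusted p under 0.05 was reached by 9, against 119 of all 14294 genes. The values of 31 of the 35 were above 0, with a median of 0.39, where 7163 of all 14294 genes were above 0. The list was chosen with earlier results of these data known, so these shares are no independent evidence. ATF4 itself had 254, 331, 265 and 301 FPM in control and 416, 393, 403 and 364 FPM with EGF. Its groups were separated and its adjusted p was 0.00466, but at 0.45 ± 0.08 it stayed below the 1.5-fold limit. TRIB3, a pseudokinase and ATF4 target, had 7.51 to 8.72 FPM in control and 9.20 to 15.1 FPM with EGF, separated groups at an adjusted p of 0.349 (0.61 ± 0.28). The stress factor DDIT3 had 2.43 to 7.78 FPM in control and 3.28 to 7.67 FPM with EGF (0.03 ± 0.41, adjusted p = 0.984), and CHAC1, which degrades glutathione, had the lowest value of the list (−0.42 ± 0.65, adjusted p = 0.840).

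The cytosolic aminoacyl-tRNA synthetases, which charge tRNAs with amino acids, showed small differences in one direction. All 20 tested genes had a value above 0, from 0.02 for RARS to 0.69 for CARS, with a median of 0.31. None exceeded 1.5-fold with an adjusted p under 0.05, so 0 passed in edgeR's test, while 4 had an adjusted p under 0.05, 15 (against 13.1% of all genes) an unadjusted p under 0.05, and 1 passed in DESeq2. YARS had 144, 150, 139 and 130 FPM in control and 241, 203, 195 and 190 FPM with EGF, separated groups with a log2 fold change of 0.56 ± 0.10 (adjusted p = 0.00227). It passed without EGF 4 (0.59, adjusted p = 0.00694). GARS had 81.1 to 141 FPM in control and 147 to 188 FPM with EGF (0.55 ± 0.13, adjusted p = 0.0316), and passed without control 2 (0.67, adjusted p = 0.0140) and without EGF 4 (0.63, adjusted p = 0.0282). CARS was the highest of the list but did not pass (0.69 ± 0.19, adjusted p = 0.0874).

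The 250 bases before the RefSeq start of ASNS are shown because the gene rose and they hold a C/EBP-ATF element, the kind of site that ATF4 binds (TGATGNAA, searched on both strands), 68 to 61 bases before the start (capitals; GRCh38.p14, chr7:97872409-97872658, minus strand, 5′ to 3′).
ASNS: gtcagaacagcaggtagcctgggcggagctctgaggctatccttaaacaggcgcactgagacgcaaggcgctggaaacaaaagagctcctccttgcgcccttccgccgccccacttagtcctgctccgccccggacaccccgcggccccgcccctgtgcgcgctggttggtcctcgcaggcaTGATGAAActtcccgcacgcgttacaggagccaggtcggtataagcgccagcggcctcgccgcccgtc
The element is in 1.66% of the 11429 promoters of tested genes, counted over 300 bases, the 250 before and the 50 after the start. In the ATF4 list it is also in the promoters of CHAC1, SLC3A2 and SLC7A1. None of these passed (log2 fold change −0.42, 0.18 and 0.25). Among the genes that rose, ATF3 and HERPUD1 hold it as well. Promoters of 28 of the 49 genes that rose and of 27 of the 35 ATF4 genes were matched, less than 80% of each, so that a comparison of shares would be void and none is given.

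The glucose and ER lists each had 1 gene that passed. SLC2A3, the glucose transporter GLUT3, had 30.9, 34.8, 9.82 and 6.98 FPM in control and 47.0, 48.2, 33.9 and 17.6 FPM with EGF. The groups overlapped over all libraries but not within a series, as series 1 was higher throughout. Its log2 fold change was 1.03 ± 0.22 (SE, adjusted p = 0.0148), with 0.53 in series 1 and 1.51 in series 2, and it was lost without control 3, control 4 or EGF 3 (adjusted p up to 0.0834). SLC2A3 was the only 1 of 21 genes of glycolysis and glucose uptake that passed, against 0.434% of all genes. In this list 5 had an adjusted p under 0.05 (119 of all 14294 genes) and 13 an unadjusted p under 0.05 (13.1% of all genes). The values of 19 were above 0 and the median was 0.34. The lowest was PDK1, which restrains entry of pyruvate into mitochondria (−0.07 ± 0.12, adjusted p = 0.848). GBE1, the glycogen branching enzyme, also rose (0.67 ± 0.15, adjusted p = 0.0279), but not without control 1, EGF 2, control 3, control 4 or EGF 4 (adjusted p up to 0.117).

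HERPUD1, which serves the degradation of misfolded ER proteins, had 18.6, 31.8, 25.5 and 19.5 FPM in control and 46.2, 59.3, 46.4 and 42.6 FPM with EGF. The groups were separated, and the log2 fold change was 1.02 ± 0.16 (SE, adjusted p = 0.00104). HSPA5, the ER chaperone BiP, had 282, 323, 387 and 391 FPM in control and 553, 511, 430 and 456 FPM with EGF. Its difference of 0.50 ± 0.10 had an adjusted p of 0.00729 but stayed below 1.5-fold, with 0.82 in series 1 and 0.19 in series 2, and it passed in series 1 alone. Of 28 ER chaperone and unfolded protein response genes 1 passed, against 0.434% of all genes. In this list 3 had an adjusted p under 0.05, 8 an unadjusted p under 0.05 (13.1% of all genes) and the median was 0.14. CRELD2 was the lowest (−0.44 ± 0.28, adjusted p = 0.523). SEC24D, a coat protein of vesicles that leave the ER, had 12.5, 21.8, 21.0 and 11.7 FPM in control and 50.1, 42.7, 33.4 and 26.9 FPM with EGF and rose by 1.14 ± 0.21 (adjusted p = 0.00392).

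**Figure D3:**
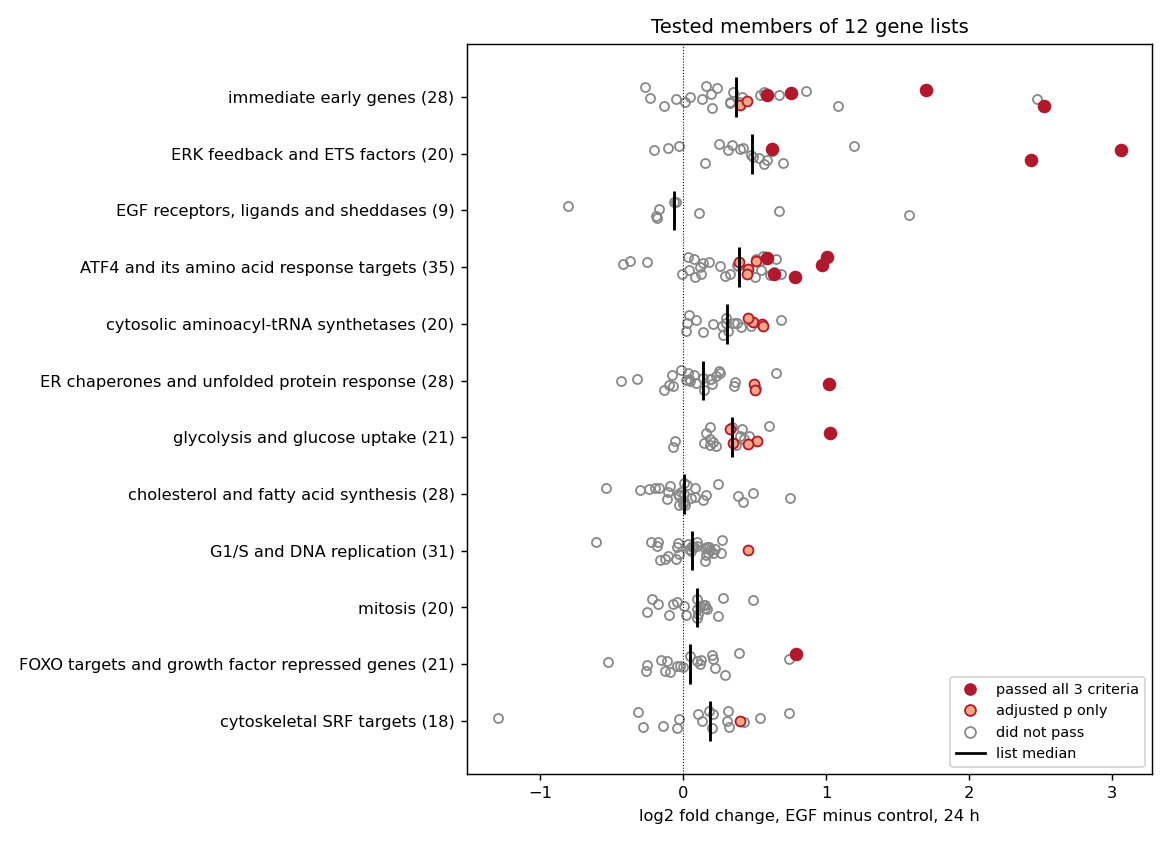
Log2 fold change (x axis) of the tested members of 12 gene lists, with the number tested in parentheses. Filled red points passed the 3 criteria, light red points had an adjusted p under 0.05 only, open points neither, and black bars are the list medians, which lie at 0.37 for immediate early genes, 0.39 for ATF4 targets and 0.00 for cholesterol synthesis.

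NEFM, the medium neurofilament subunit, was the abundant gene with the most precise rise. Control libraries held 3256, 3025, 3086 and 3637 FPM and EGF libraries 8560, 6927, 6150 and 7377 FPM. No EGF library came near the controls, and the log2 fold change was 1.16 ± 0.08 (SE, adjusted p = 4.93e-11). Of its exonic length 26.4% overlaps an antisense gene of the table, and as the strand setting of the counting is not stated, reads in that stretch cannot be assigned to either strand. The other 11 tested neuronal filament and neurosecretory genes did not pass, so 1 of 12 did, against 0.434% of all genes. The lowest was NEFH, the heavy subunit, with 1.03 ± 0.729 FPM in control and 0.463 ± 0.607 FPM with EGF (mean ± SD, n = 4 each, log2 fold change −1.12 ± 1.08 (SE), adjusted p = 0.711).

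RGS16, which speeds GTP hydrolysis of Gi and Gq proteins, had 26.3, 28.7, 16.8 and 17.2 FPM in control and 69.6, 42.0, 38.4 and 50.3 FPM with EGF. The rise of 1.17 ± 0.20 (SE, adjusted p = 0.00159) separated the groups. RGS2, a regulator of Gq signalling downstream of AT1R, had 1.74 to 11.1 FPM in control and 0.192 to 12.4 FPM with EGF, and the libraries of both groups were mixed (−0.09 ± 0.50, adjusted p = 0.961). RGS16 was the only 1 of 12 tested RGS genes that passed, against 0.434% of all genes, and RGS5 was the lowest (−0.94 ± 0.55, adjusted p = 0.485).

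Genes of secreted and surface proteins followed. TGFB1, transforming growth factor beta 1, had 23.1, 15.8, 24.6 and 21.6 FPM in control and 30.0, 47.8, 37.3 and 55.8 FPM with EGF, separated groups with a log2 fold change of 1.02 ± 0.20 (SE, adjusted p = 0.00665). Its adjusted p was 0.0634 without EGF 2. CLU, the extracellular chaperone clusterin, had 45.5, 51.0, 60.5 and 47.5 FPM in control and 109, 85.1, 80.3 and 90.5 FPM with EGF (0.83 ± 0.13, adjusted p = 0.000928). SCARA5, a ferritin receptor, had 64.9, 64.0, 57.5 and 58.8 FPM in control and 113, 83.4, 89.5 and 118 FPM with EGF (0.72 ± 0.12, adjusted p = 0.00227). In both genes the lowest EGF library exceeded the highest control. These 3 were the called members among 9 tested genes of a late secreted and surface list, which had been drawn up with the earlier results of these data known and is no independent evidence. Its highest value was that of MMP9 at 0.375 ± 0.521 against 1.39 ± 0.598 FPM (mean ± SD, n = 4 each), which did not pass (1.82 ± 0.97 (SE), adjusted p = 0.436), and its lowest was PLAUR (−0.12 ± 0.30, adjusted p = 0.903).

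Several further genes rose more than 2-fold. C11orf96 (chr11:43964187-43965428, plus strand), a gene of little known function, had 18.8, 7.52, 14 and 13.4 FPM in control and 62.5, 55.1, 20.9 and 36.8 FPM with EGF. The log2 fold change was 1.70 ± 0.29 (SE, adjusted p = 0.00227), with 2.25 in series 1 and 0.99 in series 2. LBH, a transcriptional cofactor, had 6.27, 6.33, 7.24 and 13.8 FPM in control and 27.2, 18.1, 20.9 and 20.9 FPM with EGF. Control 4 lay above the other controls but below all EGF libraries, the log2 fold change was 1.38 ± 0.27 (adjusted p = 0.0078), and without control 3 the adjusted p was 0.0503. PLEKHA4, a phosphoinositide-binding adaptor, had 8.90, 6.99, 10.8 and 11.5 FPM in control and 20.1, 17.7, 18.7 and 23.8 FPM with EGF (1.09 ± 0.26, adjusted p = 0.0340). It kept its call in 1 of 8 fits with a library left out, that without EGF 3 (adjusted p otherwise up to 0.100).

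LIN7B and FUT2 rested on less. LIN7B, a scaffold protein of cell polarity, had 1.82, 2.24, 4.17 and 4.16 FPM in control and 27.2, 7.12, 3.28 and 17.3 FPM with EGF. EGF 3 lay within the controls and the other 3 EGF libraries above all of them, with a log2 fold change of 2.02 ± 0.51 (SE) at an adjusted p of 0.0498, which rose up to 0.235 with a library left out (lost without any but EGF 2 and EGF 3). FUT2, a fucosyltransferase of blood group H antigen synthesis, had 3.44, 1.71, 0.737 and 3.09 FPM in control and 9.63, 8.76, 7.31 and 7.86 FPM with EGF. Its groups were separated, with a log2 fold change of 1.92 ± 0.46 (adjusted p = 0.0367), and the call was lost without any but control 1 and EGF 3 (adjusted p up to 0.123).

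The remaining rises were between 1.5-fold and 2-fold. They included the hypoxia- and stress-responsive NDRG1, which rose from 313 ± 101 to 513 ± 92.4 FPM (mean ± SD, n = 4 each, log2 fold change 0.74 ± 0.11 (SE), adjusted p = 0.0004), the translation elongation factor EEF1A2 (0.91 ± 0.14, adjusted p = 0.000928) and the arrestin domain protein ARRDC4 (0.79 ± 0.12, adjusted p = 0.000976). ARRDC4 was the 1 called gene among 21 tested FOXO targets and growth factor repressed genes, against 0.434% of all genes. Of the 21 genes 12 had a value above 0 and 9 below, and TXNIP, a related arrestin, did not pass (0.21 ± 0.13, adjusted p = 0.523). PMAIP1, the BH3-only protein NOXA, rose by 0.68 ± 0.11 (adjusted p = 0.000928) and NRARP, a feedback inhibitor of Notch, by 0.66 ± 0.13 (adjusted p = 0.00665). Without EGF 2 the first fell below the 1.5-fold limit (0.58) and the second lost its adjusted p (0.0581). ANXA1 (annexin A1), VDR (vitamin D receptor), GPRC5A, ICAM5, POLR3K, UNC5B, SEL1L3, VAT1, INSM1, PER1, GAB2, SLC6A6 (taurine transporter), CTSB (cathepsin B), SFXN3, RNF122, BHLHE40 and FRG1 completed the group. Each lost its call with at least 1 library left out, and FRG1 has near-identical copies in the genome, among which reads may have been split.

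Of the 13 falls only WDR52 and MUC19 passed with every library left out. WDR52, a protein of cilia and flagella (chr3:113005777-113160457, minus strand), had 41.9, 35.2, 66.1 and 39.7 FPM in control and 14, 22.4, 25.1 and 21.9 FPM with EGF. The groups were separated and the log2 fold change was −1.11 ± 0.18 (SE, adjusted p = 0.00104), a 2.16-fold fall. MUC19, a gel-forming mucin (chr12:40787197-40964634, plus strand), had 66.5, 46.5, 57.9 and 61.7 FPM in control and 41.5, 27.6, 19.7 and 23.6 FPM with EGF (−1.09 ± 0.21, adjusted p = 0.00665). Its fall was −0.71 in series 1 and −1.45 in series 2.

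The largest falls were in genes with few reads. ESYT3, an ER to plasma membrane tether (chr3:138153428-138200528, plus strand), had 5.26, 3.56, 4.79 and 8.18 FPM in control and 0.275, 0.00, 1.26 and 1.73 FPM with EGF, which is 26 to 61 reads against 0 to 10. The fitted log2 fold change of −2.74 ± 0.63 (SE, adjusted p = 0.0279) depends on the prior count at such low values. FRMPD2, a scaffold protein of cell junctions, had 9.30, 5.67, 12.5 and 7.38 FPM in control and 2.48, 1.46, 1.51 and 2.30 FPM with EGF (−2.18 ± 0.49, adjusted p = 0.0242). SLC26A7, an anion transporter, had 15.8, 8.04, 7.24 and 9.26 FPM in control and 1.10, 5.11, 2.52 and 1.92 FPM with EGF (−1.86 ± 0.39, adjusted p = 0.0148). In these genes every EGF library was below every control. SCAMP5, a secretory carrier membrane protein, had 9.51, 6.20, 10.8 and 11.5 FPM in control and 2.20, 2.92, 2.27 and 5.56 FPM with EGF (−1.55 ± 0.36, adjusted p = 0.0316).

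The other falls were smaller. SAMD9, an interferon-induced antiviral factor, had 15.8, 24.3, 16 and 14 FPM in control and 7.43, 9.13, 8.82 and 7.10 FPM with EGF (−1.08 ± 0.24, adjusted p = 0.0209). ABTB1 had 22.7, 14.8, 15.6 and 22.5 FPM in control and 5.78, 9.67, 10.5 and 10.4 FPM with EGF (−1.04 ± 0.25, adjusted p = 0.0332). CLHC1 had 29.1, 24.4, 35.1 and 29.1 FPM in control and 17.1, 11.7, 18.5 and 17.5 FPM with EGF (−0.86 ± 0.20, adjusted p = 0.0258). All 3 genes were lower in every EGF library. ABI3BP, an extracellular matrix protein, had 68.2, 93.6, 35.4 and 46.9 FPM in control and 31.4, 53.1, 27.7 and 22.1 FPM with EGF. Its groups overlapped across but not within the series (−0.83 ± 0.18, adjusted p = 0.0231). ANKMY1, the methyltransferase subunit gene N6AMT1 and the monocarboxylate transporter gene SLC16A4 fell by 0.70, 0.65 and 0.62 on the log2 scale (adjusted p = 0.0412, 0.0316 and 0.0319). Each of these 11 genes lost its call in 3 to 6 of the 8 fits with a library left out, SLC26A7 without control 1, control 4 or EGF 4, and the adjusted p of the 11 genes then reached 0.0820 to 0.157.

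Genes of growth and division had medians near 0. Of 31 tested genes of G1/S and DNA replication 0 passed in edgeR's test or in DESeq2 (5 at an unadjusted p under 0.05), with a median of 0.06 and a range from −0.61 for CCNE1 to 0.45 for CDC25A, the phosphatase that had an adjusted p of 0.0271 but stayed below 1.5-fold. Of 20 mitosis genes 0 passed in either tool (4 at an unadjusted p under 0.05), with a median of 0.10. CCND1, the D-type cyclin that mitogens induce early, had 79.0 to 108 FPM in control and 89.7 to 109 FPM with EGF (0.10 ± 0.12, adjusted p = 0.774). Of 28 genes of cholesterol and fatty acid synthesis 0 passed in either tool (3 at an unadjusted p under 0.05), with a median of 0.00 and 15 above 0. Of 18 cytoskeletal SRF targets 0 passed in either tool, with a median of 0.19. In this list 10 genes, against 13.1% of all genes, had an unadjusted p under 0.05, of which 9 were higher, and FLNA (filamin A) had an adjusted p of 0.0221 at 0.40 ± 0.09. A p that misses the threshold does not show that these genes were equal in both groups.

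EGF was also given together with AII, in libraries that are not among the 8 compared above. Both comparisons came from the same fit of all 15 libraries of 24 h. They share its filter, scaling and estimate of the spread, so genes found in both are no independent replication. AII+EGF (n = 3) against AII (n = 4) gave 41 genes (0.287%), 32 higher and 9 lower. U1 genes took 57.2% of the counts in AII 3 and 55.6% in AII+EGF 4, more than in any control or EGF library. Protein-coding genes held only 20.8% and 24.3% there. Of the 49 genes that rose with EGF alone 45 had the same sign there and 22 passed there too, which is 44.9% of the 49 and, as a share of the 41 genes, 53.7%. Of the 13 falls 13 had the same sign and 2 passed, WDR52 (−0.91 ± 0.20, adjusted p = 0.0205) and MUC19 (−1.34 ± 0.24, adjusted p = 0.00349). EGR1 rose from 10.1 ± 2.23 with AII to 85.7 ± 8.19 FPM with AII+EGF (mean ± SD, log2 fold change 3.07 ± 0.18 (SE), adjusted p = 3.84e-12). ETV5 changed by 3.97 ± 0.77 (adjusted p = 0.00859), ETV1 by 3.40 ± 0.63 (adjusted p = 0.00492), ASNS by 1.38 ± 0.14 (adjusted p = 1.07e-06), SLC7A11 by 1.57 ± 0.21 (adjusted p = 5.31e-05) and NEFM by 0.83 ± 0.08 (adjusted p = 7.92e-07). The 4 rises without the same sign were FUT2, LIN7B, POLR3K and IER5, at −0.42, −0.40, −0.06 and −0.02.

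The difference between the EGF effect with and without AII was tested gene by gene, and 0 of 14294 genes passed in edgeR's quasi-likelihood test (472 at an unadjusted p under 0.05, smallest adjusted p 0.998). DESeq2 gave 0 as well, with 533 at an unadjusted p under 0.05. Among the named genes CHAC1 differed most, by 4.52 ± 1.02 on the log2 scale (SE, adjusted p = 0.998). It was at 0.410 ± 0.339 FPM with AII and 8.08 ± 5.16 FPM with AII+EGF (mean ± SD), where it passed (4.10 ± 0.78 (SE), adjusted p = 0.00682). FUT2 differed by −2.34 ± 0.68 and LIN7B by −2.43 ± 0.77 on the log2 scale (SE). NEFM differed by −0.33 ± 0.12 and EGR1 by 0.54 ± 0.25. Of the 62 genes 14 had an unadjusted p under 0.05 for this difference, but the genes were selected on EGF and control libraries that enter it, so this number is only a description.

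After 6 h, with other control and EGF libraries, 326 of 13237 tested genes (2.46%) passed, 187 higher and 139 lower, and the biological coefficient of variation was 8.43% against 18.0% after 24 h. Of the 49 genes that were higher after 24 h 40 had the same sign at 6 h and 20 passed there (40.8%), and of the 13 that were lower 12 had the same sign and 1, FRMPD2, passed. The 21 genes were 33.9% of the 62 and 6.44% of the 326. For genes of ERK signalling, some log2 fold changes were larger at 6 h and others smaller. EGR1 was at 2.70 ± 0.862 FPM in control and 61.7 ± 4.81 FPM with EGF at 6 h (mean ± SD, n = 4 each, log2 fold change 4.47 ± 0.16 (SE), adjusted p = 5.38e-15), against 2.53 at 24 h. The log2 fold change of ETV5 was 5.63 ± 0.47 at 6 h, that of EGR3 2.73 ± 0.25, that of SPRED2 1.49 ± 0.10 and that of TGFB1 2.02 ± 0.20. Control levels differed between the times too. EGR1 had 2.70 FPM in control at 6 h and 11.2 FPM at 24 h, against 61.7 and 64.3 FPM with EGF. TGFB1 had 5.86 and 21.3 FPM in control, and 24.4 and 42.7 FPM with EGF. SPRED2 had 20.7 and 40.0 FPM in control, and 58.5 and 61.5 FPM with EGF. ETV5 with EGF was at 9.35 FPM at 6 h and 5.98 FPM at 24 h. ETV1 had 3.65 FPM with EGF at 6 h, under the limit of 5 FPM (3.89 ± 0.58). Values at 6 h were smaller than at 24 h for JUN (−0.12 ± 0.10), MYC (−0.10 ± 0.06), DUSP1 (0.17 ± 0.14) and IER5 (−0.18 ± 0.13), none of which passed at 6 h, and the median of the ERK feedback and ETS list was 0.40 at 6 h and 0.48 at 24 h. The difference between the times was not tested.

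Other genes that rose at 24 h did not pass at 6 h. ASNS was at 75.1 ± 2.29 and 79.4 ± 3.79 FPM (mean ± SD, n = 4 each, log2 fold change 0.08 ± 0.07 (SE), adjusted p = 0.539). HERPUD1 (−0.14 ± 0.11, adjusted p = 0.448), EEF1A2 (−0.02 ± 0.13, adjusted p = 0.941), SCARA5 (−0.28 ± 0.12, adjusted p = 0.147), ATF3 (0.23 ± 0.09, adjusted p = 0.0940) and RGS16 (0.31 ± 0.13, adjusted p = 0.137) did not pass either. SLC7A5, in contrast, passed at both times (0.71 ± 0.07 at 6 h, adjusted p = 9.41e-07), and NEFM rose at 6 h by 0.60 ± 0.08 (adjusted p = 1.97e-05). The median of the ATF4 list was 0.16 at 6 h and 0.39 at 24 h, that of the immediate early list 0.35 and 0.37, and that of the aminoacyl-tRNA synthetases 0.08 and 0.31. FUT2 fell at 6 h (−1.41 ± 0.31, adjusted p = 0.00382) where it rose at 24 h.

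**Figure D4:**
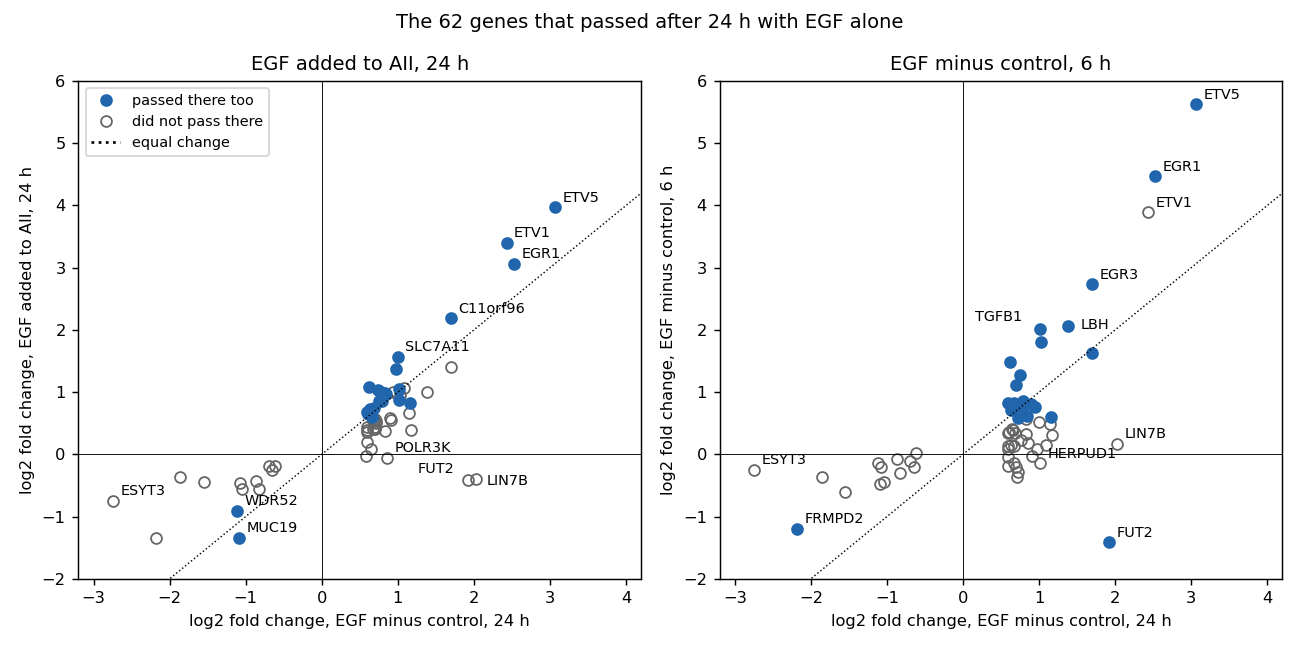
Each point is 1 of the 62 genes that passed after 24 h with EGF alone (x axes, log2 fold change against control). The y axes give its log2 fold change for EGF added to AII after 24 h (left) and for EGF against control after 6 h (right), filled points passed there too, and the dotted line marks equal change. At 6 h EGR1 and ETV5 lie above the line at 4.47 and 5.63, and FUT2 lies below 0.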

How the data were processed

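RNA of transiently transfected HEK293 cells was depleted of ribosomal RNA and sequenced in pairs on an Illumina HiSeq2000. The authors deposited raw counts per gene, without normalization. The submitters' processing notes name Trim Galore, cutadapt 1.8.1, TopHat2 2.0.14, featureCounts 1.4.6 and hg19, while the series' design text names HISAT2 as the mapper; the strand setting is not stated. In the 24 h table the columns of library series 1 in the 8 compared libraries carry the word filtered in their names and those of series 2 do not, and its meaning is not stated. The AII+EGF library b15 of series 2 carries the word too, while the AII libraries of series 2 do not. An AII+EGF library of 24 h (b08) was not analysed here, since no column was mapped to it.

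From the counts of protein-coding genes, edgeR 4.0.16 (R 4.3.3) gave TMM factors, dispersions and the quasi-likelihood test, with all 15 libraries of 24 h in the fit and the library series as a block. The 6 h table (16 libraries) had its own fit, with the first and second pass through the 4 conditions in the sample titles as the block. The SE of a fitted log2 fold change is its absolute value divided by the square root of the test's F statistic. It is thus no estimate apart from the p. Genes with few reads were dropped by filterByExpr. A gene passed at a Benjamini-Hochberg FDR under 0.05 over all genes tested, a fold change above 1.5 and a mean above 5 FPM, in the EGF libraries for higher and in the control libraries for lower genes. Differences within a series are means of log2(FPM + 0.5). An exact permutation test (two-sided) was used for a gene under the filter. For separated groups it gives the smallest possible p and adds nothing to the separation.

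Any gene that passed could be named. Values per library are given for the 15 largest rises and the 10 largest falls with 1 sign in both series, and for genes marked in the lists whether or not they passed (a gene that is not reported here excepted); of 360 list entries 357 were matched. The comparison, the lists and the tests were chosen with earlier results of these data known. Libraries of a group all differed beyond counting noise (lowest chi-square per gene 7.46), and none was taken for a duplicate. Counting error limits genes with few reads. The alternatives were DESeq2 1.42.0, its size factors, voom with quality weights (limma 3.58.1), no filter on low counts, other thresholds, no block, all gene types, only the 8 libraries, each series alone and each library left out. Gene positions are from GENCODE v44 lifted to GRCh37, promoter sequences from RefSeq (GRCh38.p14). Exons of 23 of the 62 genes overlap those of another gene in the table, in 1 of them (NEFM) by more than 20% of the exonic length.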

Additional observations from a re-analysis of the deposited data

Results flagged for a closer look

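In 114 groups of 4 libraries checked for a single library far from the others, 6 were found where chance gives about 5.7. The gap of that library to its nearest neighbour, as a share of the range of its group, was 0.944 for ETV5 in control 2 (high), 0.871 for LBH in control 4 (high), 0.866 for JUN in control 2 (low), 0.832 for ABTB1 in EGF 1 (low), 0.866 for ARC in EGF 1 (high) and 0.836 for the share of counts on protein-coding genes in EGF 2 (high, 57.1%).

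FUT2 and PCK2 had opposite directions at the 2 times in every library. FUT2 rose by 1.92 on the log2 scale at 24 h and fell by 1.41 at 6 h. PCK2 rose by 0.706 at 24 h and fell by 0.36 at 6 h, where it did not pass. The difference between the times was not tested.

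With all gene types in the fit, 35 of 22174 genes tested passed after 24 h, 30 of them protein-coding and 5 not. These 5 genes were all lower with EGF than in control. FPM here is in 1000000 fragments of all gene types, so levels and the limit of 5 FPM are not on the scale above. The 2 lincRNA genes were AC159540.1, at 103 FPM in control and 56.0 FPM with EGF (log2 fold change −0.86 ± 0.15 (SE), adjusted p = 0.0185), and AC159540.2, at 12.4 and 6.36 FPM (adjusted p = 0.0329). The antisense gene RP11.473M20.7 and the pseudogenes RP11.126O22.1 and RP11.123C21.2 had adjusted p-values of 0.0494, 0.0498 and 0.0498.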

How the results depend on the processing

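For EGF against control after 24 h, the 62 genes became 118 with DESeq2 (71 higher, 47 lower, all 62 among them), 127 without the filter on low counts (68 higher, 59 lower), 119 without the FPM and fold change filter, 27 at an FDR of 0.01 (25 higher, 2 lower), 20 without the library series block (18 higher, 2 lower), 35 with all gene types, 24 with only the 8 libraries in the fit (22 higher, 2 lower), 7 in series 1 alone and 27 in series 2 alone (21 higher, 6 lower). With DESeq2's size factors it was 61 and with voom 48. Leaving out a library gave 29 to 115 genes. Of the 62, 2 passed under every alternative (EGR1 and NEFM), 17 with every library left out, and 0 changed sign. For EGF added to AII, the 41 genes became 26 at an FDR of 0.01, 22 without the block, 69 with voom and 22 to 44 with a library left out (22, 24 and 25 without AII+EGF 1, 3 and 4). The difference of the EGF effects gave 2 genes without the low-count filter and 0 under every other alternative and with each library left out. The fit of 24 h without that filter gave every gene the common spread at its level (infinite prior degrees of freedom, 19.0 in the main fit). The 326 genes at 6 h became 1538 without the FPM and fold change filter and 288 to 367 with a library left out. The causes were not tested.

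Among named genes that did not pass, 6 changed sign. The EGR2 value was −0.76 in series 1 alone and −0.042 to 0.70 with a library left out. That of EGFR was 0.16 in series 2 alone and −0.21 to 0.081 with a library left out, that of DDIT3 −0.31 and −0.19 to 0.27, and that of RGS2 0.10 and −0.69 to 0.23. CHAC1 was at 0.026 with voom and 0.11 in series 2 alone, and AGTR1 at −0.029 in series 1 alone and −0.039 to 0.18 with a library left out. Of the named genes that did not pass, 4 passed somewhere, which were ARC (with DESeq2, without the low-count filter, control 3 or EGF 3), GARS (without control 2 or EGF 4), YARS (without EGF 4) and HSPA5 (series 1 alone). No paired analysis was possible because replicate numbers are not part of the labels.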
